A study of Mus musculus with 24 samples.

Results

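Hindlimb unloading was compared with normal cage activity in the gastrocnemius, the large fast muscle of the mouse calf, by RNA sequencing of wild-type (WT) C57BL/6 mice. The comparison rests on 8 of the 24 libraries of the series: 4 libraries of WT muscle after 7 days of hindlimb suspension and 4 libraries of untreated WT muscle, chosen by their labels. The mice called WT carried floxed Notch2 alleles and no Cre, so the unloaded and the control group share those alleles. Other libraries entered as a background for 2 tests: WT muscle taken 14 days after 150 mg/kg of streptozotocin, a toxin of insulin-producing cells that causes diabetes, and muscle labelled Notch2-mKO, unloaded for 7 days or untreated, in which Cre driven from the Mlc1f locus of muscle fibres deletes the floxed Notch2. The main fit also took in muscle labelled Notch2-mKO, taken 14 days after the same dose of streptozotocin. Its estimate of the spread comes from all 24 libraries in 6 groups. The labels do not say that the libraries of a group came from separate animals. A p-value of this fit therefore measures the spread between libraries of a group, shared over the 6 groups, part of which may be technical.

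Skeletal muscle that no longer bears weight loses mass. In wasting muscle, ubiquitin ligases mark contractile proteins, the proteasome degrades them, and transcription factors of the forkhead (FOXO) family switch on many genes of this pathway when insulin and IGF signalling is low. Load also acts on the cytoskeleton. Serum response factor (SRF) drives actin genes through the CArG box of their promoters, and fibroblasts and tendon cells make collagen in response to tension. Whole muscle was sequenced, so RNA came from fibres and from vessel, immune, connective and nerve cells, and fewer cells of a type cannot be told apart from less RNA per cell.

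The 4 unloaded libraries held between 37135621 and 47516094 estimated counts and the 4 control libraries between 33112459 and 43927387, and 3 counts in the shallowest library correspond to 0.0906 CPM, the count scaled to the size of the library. Pearson correlations between replicates of either group lay between 0.9714 and 0.9851. The fast myosin Myh4 alone had 74295 ± 8482 CPM in unloaded and 90505 ± 8445 CPM in control muscle (mean ± SD, n = 4 each), and it made up 92.9% of the 4 adult myosin heavy chain messages per length in unloaded and 92.5% in control muscle. A trend with base composition separated the groups. The mean log2 level of 1250 AT-rich genes (under 42% GC) minus that of 2678 GC-rich genes (over 56% GC), centred over all libraries, was 0.43 ± 0.07 in the unloaded libraries and -0.68 ± 0.35 in the control libraries (SD, n = 4 each). Control replicate 4 stood at -0.19 and the other controls between -0.99 and -0.68. Fold changes were therefore also fitted with offsets that take this trend, and a like one with transcript length, out of every library. A gene that passed in both fits with the same sign is described as called in both.

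**Figure D1:**
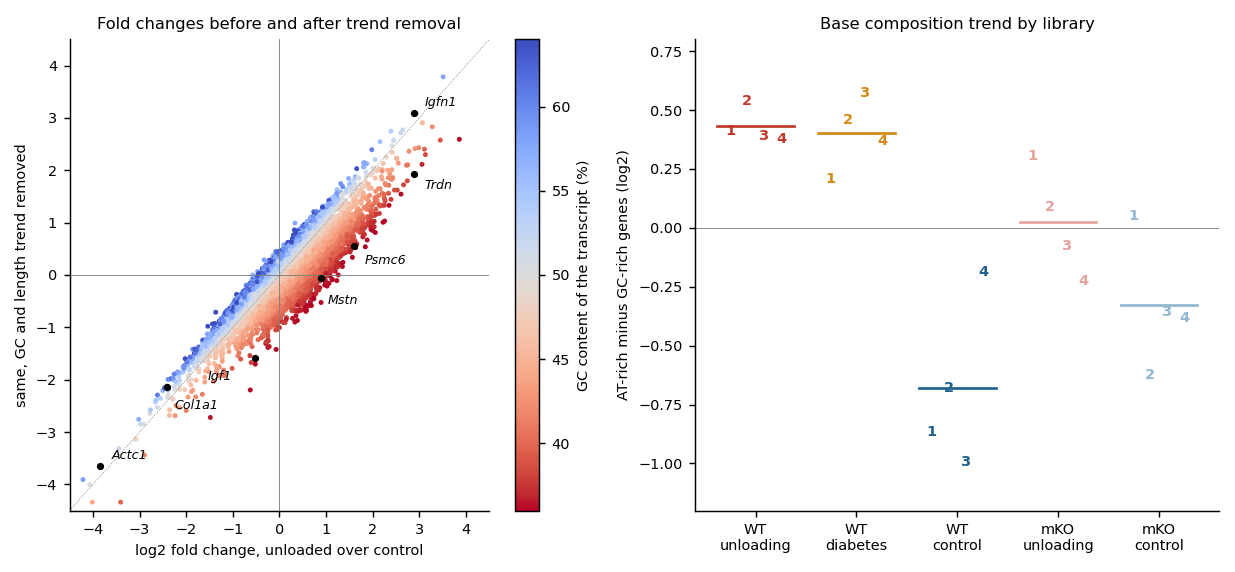
Left, log2 fold change (unloaded over control WT muscle) of each gene with a GC value against the same after removal of the GC and length trend, coloured by GC content, with 7 genes marked. Right, mean log2 level of AT-rich minus GC-rich genes in 20 libraries of 5 groups, numbered by replicate with lines at the means; the 4 unloaded WT libraries lie above the 4 WT controls.

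Of 13048 genes tested, 2395 were higher (18.4%) and 2127 lower (16.3%) in unloaded WT muscle at an adjusted p below 0.05 (edgeR quasi-likelihood test). Among them 734 rose and 421 fell at least 2-fold. With the trend removed 1868 genes (14.3%) were higher and 1512 (11.6%) lower. Both fits called 1302 genes higher (9.98%) and 1050 lower (8.05%), while 43 genes were called in both with opposite signs. Shares given for a gene list are of its tested members, beside 18.4% higher and 16.3% lower of all genes. The unloaded and control libraries did not overlap for 4351 genes (33.3%). On the authors' own log2 scale, tested with limma, the split was 3231 higher and 716 lower. Among genes under 42% GC, 742 of 1250 were called higher and 18 lower, and among genes over 57% GC, 46 of 2032 were called higher and 650 lower. The median change of the 1250 AT-rich genes was 0.75 on the log2 scale, and 0.00 with the trend removed. The part of the treatment and of the base composition trend in these calls cannot be told apart, since the libraries of the groups differ in both.

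The largest falls were in a cardiac actin, in matrix and tendon genes and in genes of creatine, glycogen and mitochondrial transport. Actc1 (chromosome 2, 114047282 to 114052875, build mm10), the actin of heart and of developing or loaded skeletal muscle, had 30.9, 29.01, 60.9 and 206 CPM in the unloaded libraries, against 624, 479, 2528 and 1042 CPM in the control libraries. The groups did not overlap, unloaded replicate 4 was the highest unloaded library and control replicate 3 the highest control (log2 fold change -3.84, SE 0.69, adjusted p = 0.000144; with the trend removed -3.64, adjusted p = 0.000307). Rsc1a1, a gene that lies inside the span of Ddi2, had 1.25, 1.09, 1.03 and 0.515 CPM in the unloaded libraries, against 10.4, 12.9, 7.81 and 11.97 CPM in the control libraries. Rsc1a1 fell (log2 fold change -3.45, SE 0.96, adjusted p = 0.00685; with the trend removed -3.31, adjusted p = 0.0121). Reads of Rsc1a1 and Ddi2 could not be separated here, because how the authors' counting assigned them is not given in the sources used here. Slc25a25 (chromosome 2, 32414487 to 32451470), a carrier that exchanges ATP-Mg for phosphate across the mitochondrial membrane, had 23.9, 15.3, 11.03 and 11.2 CPM in the unloaded libraries, against 122, 113, 75.3 and 50.3 CPM in the control libraries, with control replicate 4 the lowest control (log2 fold change -2.55, SE 0.41, adjusted p = 5.31e-05; with the trend removed -2.36, adjusted p = 0.000206). Gamt (chromosome 10, 80258151 to 80261025), which makes creatine by methylating guanidinoacetate, had 1.42, 3.27, 4.44 and 7.19 CPM in the unloaded libraries, against 19.4, 24.3, 22.4 and 18.7 CPM in the control libraries, and every unloaded library lay below every control (log2 fold change -2.39, SE 0.42, adjusted p = 0.000125; with the trend removed -1.99, adjusted p = 0.000717).

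Ppp1r3c (chromosome 19, 36731731 to 36736604), which brings a phosphatase to glycogen, had 76.9, 143, 67.3 and 76.8 CPM in the unloaded libraries, against 145, 242, 1250.1 and 229 CPM in the control libraries. Control replicate 3 stood far above the other controls, and without it the change was -1.18 and not called (adjusted p = 0.0593), against -2.36 with it. Ddit4 (chromosome 10, 59949675 to 59951770), a stress-induced inhibitor of mTORC1, had 6.55, 12.6, 8.37 and 10.99 CPM in the unloaded libraries, against 46.8, 86.5, 27.1 and 19.02 CPM in the control libraries; the controls spread more than 4-fold but did not overlap the unloaded libraries (log2 fold change -2.22, SE 0.54, adjusted p = 0.0026; with the trend removed -1.88, adjusted p = 0.0113). Inpp5j, an inositol phosphatase of insulin signalling, fell by 2.28 on the log2 scale with little spread: it had 0.849, 1.11, 0.586 and 0.841 CPM in the unloaded and 4.68, 3.99, 4.16 and 3.68 CPM in the control libraries. The remaining large falls were in Chad (-2.5; it lies inside the span of Acsf2) and Cilp2 (-2.33), matrix genes of cartilage and tendon, in Col1a1 (-2.41), in the linker histone gene Hist1h1e (-2.26) and in Rmi2 of a DNA repair complex (-2.4; 4.83, 4.82, 6.87 and 6.09 CPM in controls), all called in both fits.

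The largest rises were led by genes of the sarcomere and of calcium release. Trdn (chromosome 10, 33083483 to 33476709), whose product triadin holds calsequestrin at the calcium release channel, had 446, 633, 453 and 665 CPM in the unloaded libraries, against 37.9, 55.9, 45.2 and 159 CPM in the control libraries. Control replicate 4 was the highest control at 159 CPM and still lay below all unloaded libraries (log2 fold change 2.88, SE 0.39, adjusted p = 7.4e-06). Its transcript has 36.8% GC and its change was 1.93 with the trend removed (adjusted p = 6.64e-06). Igfn1 (chromosome 1, 135953205 to 136040925), a Z-disc protein of the immunoglobulin and fibronectin family, had 59.97, 33.8, 43.3 and 45.1 CPM in the unloaded libraries, against 9.39, 5.34, 3.28 and 6.77 CPM in the control libraries, and its change was as large with the trend removed (log2 fold change 2.88, SE 0.39, adjusted p = 7.4e-06; with the trend removed 3.09, adjusted p = 6.64e-06). Unloaded replicate 1 was the highest library and no unloaded library came near the controls. The protein-coding gene Tmem9 lies inside the span given for Igfn1, and reads of these genes could not be separated here. Eda2r (chromosome X, 97333837 to 97377234), a receptor of the tumour necrosis factor family that is induced by p53, had 74.3, 45.3, 16.6 and 14.3 CPM in the unloaded libraries, against 3.63, 7.43, 4.33 and 6.93 CPM in the control libraries. All 4 unloaded libraries exceeded the controls, but unloaded replicates 1 and 2 were well above replicates 3 and 4 (log2 fold change 2.75, SE 0.58, adjusted p = 0.000711; with the trend removed 2.1, adjusted p = 0.00599). The other large rises were in genes of low GC content: Tmem184c (2.55), Zfp51 (2.47), Ift74 (2.43), Cir1 (2.41), Ppig (2.39), Nol8 (2.39), Esf1 (2.34), Dek (2.25) and Zfp960 (2.25). They were called in both fits, with smaller changes of 1.33 in Zfp960 to 2.14 in Tmem184c once the trend was removed. Among the largest changes Slc25a25, Inpp5j, Ift74 and Dek also overlap a protein-coding gene (Naif1, Pla2g3, Lrrc19 and Kdm1b), with the same limit on their reads as in Igfn1.

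**Figure D2:**
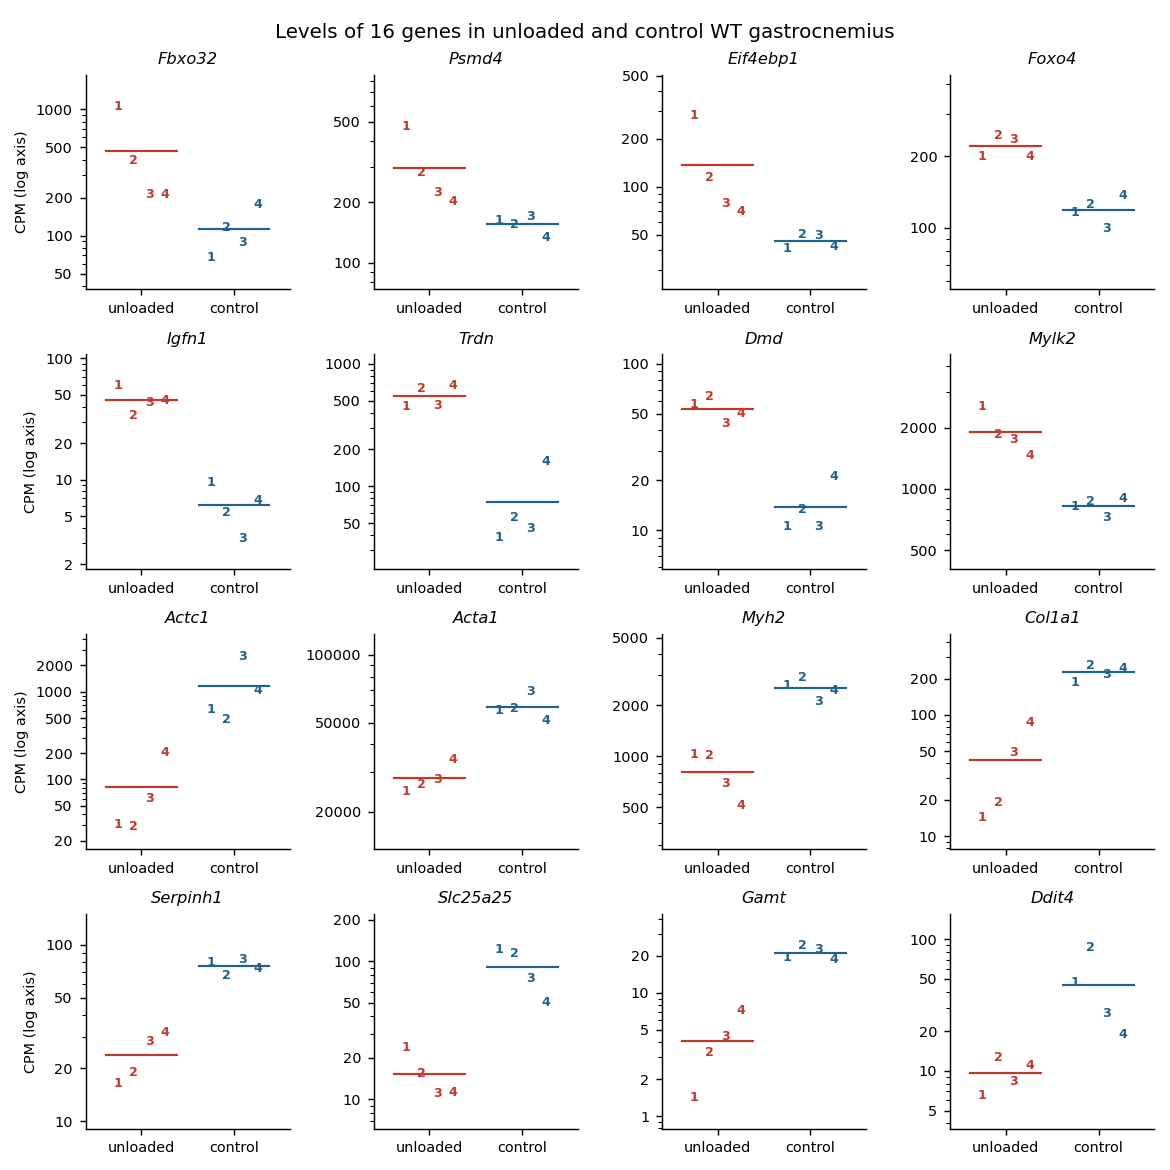
CPM on a log axis for 16 genes in the 4 unloaded (red) and 4 control (blue) WT libraries, each shown by its replicate number, with a line at the group mean. Unloaded replicate 1 is the highest library for Fbxo32 (1047 CPM) and Eif4ebp1, and unloaded replicate 4 is the highest unloaded library for Actc1 and Col1a1.

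Promoters are shown of Actc1, Igfn1 and Eda2r, and of the skeletal actin gene Acta1 described below. Not all of the largest changes and of the anchors named whatever their p have a promoter among those searched. Of those that do, the genes shown here were the called ones whose promoter held either of the 2 motifs searched. The motifs are the CArG box, the binding site of SRF, and the forkhead motif GTAAACA. Both were searched on either strand in 250 bases before to 50 after the annotated start (RefSeq, build GRCm38.p6). The 2 motifs overlap in 2 of 27025 promoter genes of the table. Sequences run 5′ to 3′ on the strand of the gene, and capitals mark the motif. The CArG box starts 47 bases before the start of Actc1 (minus strand, chr2:114052826-114053125) and 73 bases before that of Acta1 (minus strand, chr8:123894726-123895025). The forkhead motif, on the strand opposite to the gene, starts 239 bases before the start of Igfn1 (minus strand, chr1:136006293-136006592; this RefSeq start lies inside the gene span given above) and 125 bases before that of Eda2r (minus strand, chrX:97377160-97377459).
Actc1: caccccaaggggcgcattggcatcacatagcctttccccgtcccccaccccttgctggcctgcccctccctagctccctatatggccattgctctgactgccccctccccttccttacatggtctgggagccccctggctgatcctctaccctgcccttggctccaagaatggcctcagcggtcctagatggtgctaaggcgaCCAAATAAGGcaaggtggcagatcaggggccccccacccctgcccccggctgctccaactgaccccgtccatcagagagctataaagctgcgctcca
Acta1: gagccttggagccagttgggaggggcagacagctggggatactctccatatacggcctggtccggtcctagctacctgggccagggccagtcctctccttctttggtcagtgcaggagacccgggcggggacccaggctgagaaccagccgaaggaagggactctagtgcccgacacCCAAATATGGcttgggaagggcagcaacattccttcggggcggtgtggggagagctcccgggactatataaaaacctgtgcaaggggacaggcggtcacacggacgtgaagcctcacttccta
Igfn1: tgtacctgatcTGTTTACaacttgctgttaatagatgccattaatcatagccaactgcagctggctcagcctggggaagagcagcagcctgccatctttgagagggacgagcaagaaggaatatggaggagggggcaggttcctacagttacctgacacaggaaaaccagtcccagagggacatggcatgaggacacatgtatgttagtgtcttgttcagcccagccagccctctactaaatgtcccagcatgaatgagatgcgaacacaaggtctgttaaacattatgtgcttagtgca
Eda2r: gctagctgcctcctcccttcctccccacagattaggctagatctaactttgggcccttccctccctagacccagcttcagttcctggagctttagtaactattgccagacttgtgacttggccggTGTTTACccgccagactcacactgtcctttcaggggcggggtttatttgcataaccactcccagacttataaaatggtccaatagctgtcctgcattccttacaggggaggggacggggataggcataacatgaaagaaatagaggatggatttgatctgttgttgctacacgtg

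Of the tested genes with a promoter in the table, 164 of 10363 (1.58%) held a CArG box. It was present in 41 of 1692 promoters of genes called lower (2.42%) and 24 of 1912 of genes called higher (1.26%), and in 25 of 819 (3.05%) and 16 of 1034 (1.55%) of those called in both fits. The forkhead motif was present in 325 promoters of tested genes (3.14%), in 37 of genes called lower (2.19%) and in 75 of genes called higher (3.92%). Of those called in both fits, 13 of 819 lower genes (1.59%) and 43 of 1034 higher genes (4.16%) held it. These shares are descriptions without a test, and a match of letters is not shown to be a bound site. Both motifs are rich in A and T, as are many of the genes called higher, and the part of base composition in these shares was not tested. Fbxo32, Trdn, Zfp51, Zfp960, Col1a1, Rmi2, Inpp5j, Hes1, Hey1 and Heyl have no promoter in the table, so they were not searched. Among anchors that were not called, the promoter of Trim63 holds 1 forkhead motif and that of Myh4 holds 1 CArG box.

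Many genes of the proteasome cap were called higher. The proteasome joins a 20S barrel that cuts proteins to a 19S cap that recognises and unfolds them. Of 18 genes of the cap, 12 rose (66.7%, against 18.4% of all genes) and 0 fell. The median log2 fold change of the cap genes was 0.56, against -0.02 over all genes tested, and 10 were called in both fits. Of the 14 genes of the barrel 6 rose (42.9%) and 0 fell (median 0.30), 3 in both fits. Psmd4, the ubiquitin receptor of the cap, had 476, 281, 222 and 202 CPM in the unloaded libraries, against 162, 155, 169.8 and 133 CPM in the control libraries. Psmd4 rose (log2 fold change 0.93, SE 0.24, adjusted p = 0.00383; with the trend removed 1.22, adjusted p = 0.000863). Psmc1, a cap ATPase, had 259, 171, 156 and 150.3 CPM in the unloaded libraries, against 125, 128, 132 and 122 CPM in the control libraries. Psmc1 rose (log2 fold change 0.54, SE 0.13, adjusted p = 0.00225; with the trend removed 0.61, adjusted p = 0.00134). Psma7 of the barrel had 259, 173, 130.4 and 131 CPM in the unloaded libraries, against 94.9, 99.8, 94.9 and 96.2 CPM in the control libraries. Psma7 rose (log2 fold change 0.84, SE 0.20, adjusted p = 0.00174; with the trend removed 1.06, adjusted p = 0.000802). For these genes the groups did not overlap, and unloaded replicate 1 was the highest library each time.

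That library weighed on the whole group. The median of the cap genes relative to the control mean was 1.08, 0.46, 0.25 and 0.24 on the log2 scale in unloaded replicates 1 to 4, and between -0.07 and 0.09 in the controls. Without unloaded replicate 1, 8 cap genes and 1 barrel gene were called higher and none lower, and the changes of Psmd4, Psmc1, Psmd2 and Psma5 were 0.60, 0.33, 0.44 and 0.35, against 0.93, 0.54, 0.79 and 0.59 with it (adjusted p between 0.017 and 0.056 without it). Psmc6, an AT-rich ATPase gene (36.97% GC), had 109, 75.5, 60.5 and 61.3 CPM in the unloaded libraries, against 19.8, 27.6, 20.6 and 33.3 CPM in the control libraries. Its change of 1.60 was 0.56 with the trend removed and was called either way. Among activators, assembly factors and immune subunits 3 of 16 rose (1 without control replicate 1 or 3) and 2 fell (4 without control replicate 4), 18.8% and 12.5% and near the background. The activator Psme4 rose (0.88) and so did Nfe2l1 (0.29), the factor that drives proteasome genes, whose change was 0.23 to 0.25 and not called without unloaded replicate 2, control replicate 1 or control replicate 3 (adjusted p between 0.062 and 0.076). Psme1, a subunit of the interferon-induced activator, fell and had 15.6, 21.2, 19.8 and 23.9 CPM in the unloaded libraries, against 46.4, 41.7, 42.2 and 40.4 CPM in the control libraries (log2 fold change -1.09, SE 0.16, adjusted p = 1.66e-05; with the trend removed -0.79, adjusted p = 0.00031).

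Of 24 ubiquitin ligase genes linked to wasting, 10 rose and 4 fell (41.7% and 16.7%), 4 and 2 in both fits. Fbxo32 (chromosome 15, 58175879 to 58214892), which encodes atrogin-1, had 1047, 389.7, 211 and 213 CPM in the unloaded libraries, against 67.5, 116, 88.6 and 176 CPM in the control libraries. No unloaded library overlapped the controls, unloaded replicate 1 was far above the others, and without it the call was lost (1.28, adjusted p = 0.0679, against 2.06 and 0.00634 with all libraries). Trim63 (chromosome 4, 134315120 to 134329629), which encodes MuRF1, had 688, 310.5, 205 and 203 CPM in the unloaded libraries, against 168, 217, 174 and 214 CPM in the control libraries. Unloaded replicates 3 and 4 lay within the control range and the gene was not called (log2 fold change 0.86, SE 0.44, adjusted p = 0.129). Fbxo30 (chromosome 10, 11281330 to 11305750), a ligase under BMP control, had 11.2, 8.53, 5.63 and 4.72 CPM in the unloaded libraries, against 3.24, 2.92, 2.38 and 4.58 CPM in the control libraries; its call (1.2, adjusted p = 0.00143) was lost with the trend removed (0.28, adjusted p = 0.365). The scaffold gene Cul1 rose and had 117, 94.3, 84.2 and 80.8 CPM in the unloaded libraries, against 39.04, 45.6, 30.4 and 49.6 CPM in the control libraries (log2 fold change 1.19, SE 0.15, adjusted p = 4.2e-06; with the trend removed 0.84, adjusted p = 5.28e-05). Falls included Rnf123 (-0.61), which controls a cell cycle inhibitor, and the MuRF relative Trim55 (-0.41), a call lost without unloaded replicate 1, control replicate 1 or control replicate 3 (-0.39 to -0.32, adjusted p between 0.054 and 0.085).

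Among 28 ubiquitin, conjugating and deubiquitinating enzyme genes 9 rose and 2 fell (32.1% and 7.14%; 4 and 0 in both fits). They included partners of p97, the enzyme that pulls ubiquitinated proteins from membranes and complexes. Ubxn4 had 136, 73.01, 56.7 and 59.6 CPM in the unloaded libraries, against 26.8, 27.03, 26.4 and 35.8 CPM in the control libraries. Ubxn4 rose (log2 fold change 1.49, SE 0.22, adjusted p = 1.82e-05; with the trend removed 1.27, adjusted p = 9.35e-05). Nploc4 had 392.2, 206, 166 and 144 CPM in the unloaded libraries, against 111, 121, 118 and 112 CPM in the control libraries. Its change of 0.98 was 0.57 and not called without unloaded replicate 1, the highest library (adjusted p = 0.0663). Ufd1l, the partner of Nploc4, rose (0.54).

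Of 29 autophagy genes 10 rose and 2 fell, 8 and 1 in both fits, that is 34.5% and 6.9% against 18.4% and 16.3% of all genes. Pink1 (chromosome 4, 138313409 to 138326296), a kinase that marks damaged mitochondria for removal, had 1549, 1756, 1824 and 1469 CPM in the unloaded libraries, against 1001, 869.9, 639 and 891 CPM in the control libraries with no overlap. Pink1 rose (log2 fold change 0.96, SE 0.14, adjusted p = 2.17e-05; with the trend removed 1.27, adjusted p = 5.68e-06). Atg3, which attaches LC3 to membranes, rose with little spread, at 24.1, 24.2, 22.1 and 23.9 CPM in the unloaded and 12.3, 16.3, 13.9 and 13.6 CPM in the control libraries (log2 fold change 0.75, SE 0.10, adjusted p = 8.51e-06; with the trend removed 0.46, adjusted p = 0.00126). Atg14 (0.48) of the initiating lipid kinase and the cargo receptor Nbr1 (0.59) rose too, while the LC3 protease gene Atg4d fell (-0.76). Of 30 lysosomal genes 7 rose and 2 fell (23.3% and 6.67%), and 1 each was called in both fits. Without control replicate 3 or unloaded replicate 1 4 rose, and without control replicate 4 4 fell. Tfeb, a master regulator of lysosomal genes, had 146, 112, 126 and 123 CPM in the unloaded libraries, against 111, 105, 86.004 and 86.8 CPM in the control libraries. Tfeb rose (log2 fold change 0.38, SE 0.13, adjusted p = 0.0228; with the trend removed 0.74, adjusted p = 5.61e-05), and was not called without unloaded replicate 1, control replicate 3 or control replicate 4 (0.31 or 0.32, adjusted p between 0.067 and 0.088). Of 18 calpain and caspase genes 3 rose and 4 fell (16.7% and 22.2%), 0 and 3 in both fits. Capn3, the muscle calpain held on titin, fell and had 124, 115, 119 and 141 CPM in the unloaded libraries, against 189, 159.9, 198 and 186 CPM in the control libraries (log2 fold change -0.56, SE 0.12, adjusted p = 0.000707; with the trend removed -0.48, adjusted p = 0.00361).

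**Figure D3:**
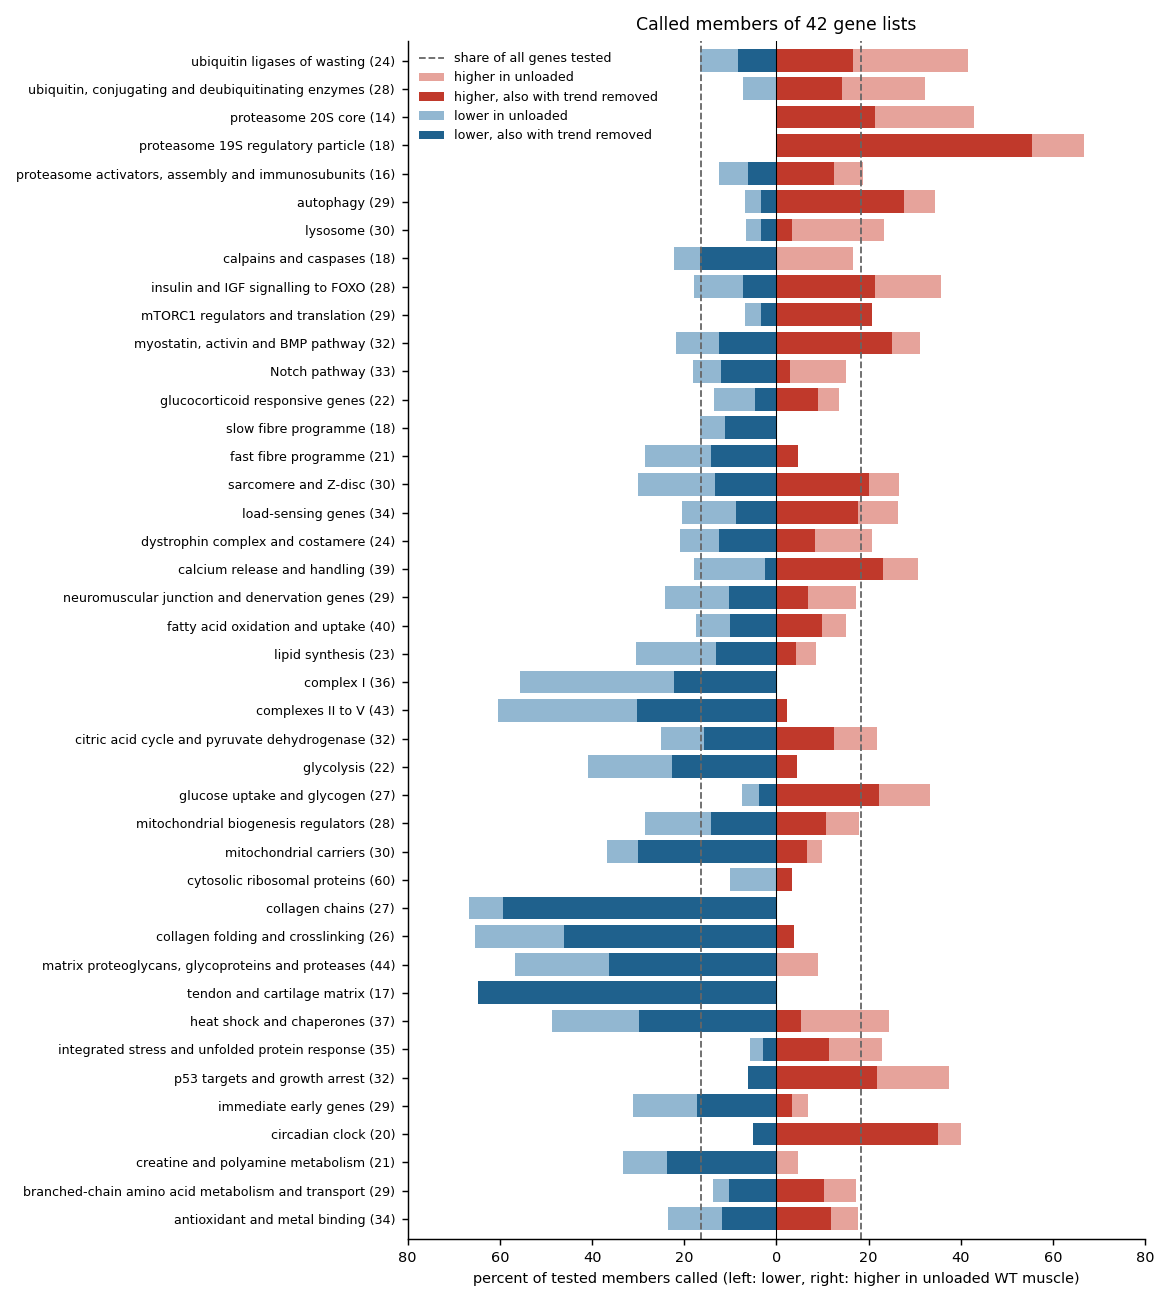
For each of 42 gene lists (members tested in parentheses), the percent of members called higher (red, right) and lower (blue, left) in unloaded WT muscle, with the part also called after trend removal in dark colour. Dashed lines mark the share of all genes tested, 18.4% higher and 16.3% lower.

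In insulin and IGF signalling to FOXO, 10 of 28 genes rose and 5 fell (35.7% and 17.9%), 6 and 2 in both fits. The FOXO genes themselves went different ways. Foxo4 (chromosome X, 101254261 to 101260873) had 199, 244, 235 and 199.98 CPM in the unloaded libraries, against 116, 125, 99.2 and 136 CPM in the control libraries. Foxo4 rose (log2 fold change 0.88, SE 0.12, adjusted p = 7.82e-06; with the trend removed 1.11, adjusted p = 4.15e-06). Foxo6 had 2.1001, 3.14, 5.003 and 7.98 CPM in the unloaded libraries, against 13.6, 13.3, 10.1 and 12.2 CPM in the control libraries. Foxo6 fell (log2 fold change -1.44, SE 0.29, adjusted p = 0.000403; with the trend removed -1.1, adjusted p = 0.00441). Foxo1 had 14.2, 16.4, 13.1 and 12.4 CPM in the unloaded libraries, against 15.5, 20.9, 41.3 and 16.6 CPM in the control libraries, with control replicate 3 above the rest, and Foxo3 had 13.02, 8.38, 7.18 and 6.18 CPM in the unloaded libraries, against 5.37, 7.95, 9.28 and 6.31 CPM in the control libraries; neither was called (adjusted p = 0.161 and 0.369). The receptor gene Igf1r rose (0.90), as did Inpp5k (0.37) and Gsk3b (0.83), which oppose insulin action, and Pik3r1 (1.26), the regulatory subunit of the PI3 kinase. The binding protein genes Igfbp4 (-0.79) and Igfbp6 (-0.81) fell, though Igfbp6 was not called once the trend was removed (-0.40, adjusted p = 0.0717). Igf1 (chromosome 10, 87858265 to 87937047), the growth factor itself, had 5.897, 5.42, 7.51 and 12.02 CPM in the unloaded libraries, against 7.41, 7.002, 17.2 and 12.96 CPM in the control libraries, and was not called (log2 fold change -0.53, SE 0.28, adjusted p = 0.138). With the trend removed its change was -1.59 and called (adjusted p = 0.000717).

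Among 29 genes of mTORC1 control and translation 6 rose and 2 fell (20.7% and 6.9%, against 18.4% and 16.3% of all genes), 6 and 1 in both fits, and without unloaded replicate 1 3 rose. Eif4ebp1, the translation repressor that mTORC1 switches off, had 282, 115, 78.9 and 70.1 CPM in the unloaded libraries, against 40.9, 50.1, 49.2 and 42.2 CPM in the control libraries. No library overlapped, but without unloaded replicate 1 its change was 0.95 (adjusted p = 0.0519), against 1.58 with it. Rragd (0.67) and Rraga (0.38), GTPases that bring mTORC1 to the lysosome, rose in both fits, whereas Ddit4 fell as described. Of 60 cytosolic ribosomal protein genes 2 rose and 6 fell (3.33% and 10%), 2 and 0 in both fits, and 11 fell without control replicate 4. With the trend removed 8 rose and 4 fell, and the median was 0.14, against -0.13 before.

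In the myostatin, activin and BMP pathway 10 of 32 genes rose and 7 fell (31.2% and 21.9%, against 18.4% and 16.3% of all genes), 8 and 4 in both fits (25% and 12.5%, against 9.98% and 8.05%). Tgfbr1 (1.30), Acvr1b (0.66) and the activin receptor Acvr2a rose; Acvr2a had 26.96, 26.2, 22.5 and 18.8 CPM in the unloaded libraries, against 7.23, 11.5, 5.69 and 13.7 CPM in the control libraries (log2 fold change 1.31, SE 0.24, adjusted p = 0.000207; with the trend removed 0.58, adjusted p = 0.0121). Bmpr1a, a BMP receptor gene, rose (0.93), and so did Smad7, which encodes an inhibitor of the pathway (1.1; 1.37 with the trend removed). The call of Smad7 was lost without control replicate 1, control replicate 3 or unloaded replicate 1 (0.90 to 0.96, adjusted p between 0.056 and 0.069), and its change was 1.65 without control replicate 2. The ligand genes Tgfb1 and Tgfb3 fell by 0.83 and 0.54 on the log2 scale and Tgfb2 rose (0.77). Id1, a direct BMP target, had 2.503, 2.55, 2.51 and 3.36 CPM in the unloaded libraries, against 7.47, 6.19, 3.34 and 5.41 CPM in the control libraries. Id1 fell (log2 fold change -1.04, SE 0.19, adjusted p = 0.000179; with the trend removed -0.73, adjusted p = 0.00758). Unloaded replicate 4 of Id1 stood above the lowest control. Mstn (chromosome 1, 53061640 to 53068079), which encodes the growth inhibitor myostatin, had 103, 94.9, 94.8 and 76.2 CPM in the unloaded libraries, against 32.02, 56.7, 52.8 and 58.9 CPM in the control libraries, and was called (log2 fold change 0.88, SE 0.17, adjusted p = 0.000294), but its change was -0.07 with the trend removed (adjusted p = 0.816). Of 33 Notch pathway genes 5 rose and 6 fell (15.2% and 18.2%), near the background. Notch2 had 2.02, 1.34, 1.97 and 1.71 CPM in the unloaded libraries, against 1.83, 1.76, 1.87 and 1.92 CPM in the control libraries (log2 fold change -0.07, SE 0.24, adjusted p = 0.852), and the target genes Hes1, Hey1 and Heyl were not called (adjusted p = 0.115, 0.266 and 0.686). Notch3, a receptor of vessel wall cells, had 13.7, 10.9, 20.8 and 13.5 CPM in the unloaded libraries, against 27.6, 30.9, 22.3 and 22.2 CPM in the control libraries. Notch3 fell (log2 fold change -0.81, SE 0.20, adjusted p = 0.00276; with the trend removed -0.53, adjusted p = 0.0211), and Mib1, a ligase that activates Notch ligands, rose (1.06; 1.09 with the trend removed).

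Among 22 glucocorticoid responsive genes 3 rose and 3 fell (13.6% and 13.6%), below the shares of all genes, and 1 fell without unloaded replicate 1, unloaded replicate 2 or control replicate 2. Klf9, a direct target of the glucocorticoid receptor, had 158, 176, 129.7 and 131 CPM in the unloaded libraries, against 53.1, 71.5, 47.1 and 62.7 CPM in the control libraries with no overlap. Klf9 rose (log2 fold change 1.34, SE 0.19, adjusted p = 1.1e-05; with the trend removed 1.24, adjusted p = 2.62e-05). Ddit4, Sgk1 and Dusp1, which the receptor can also induce, were called lower. Sgk1 had 78.8, 119.9, 149 and 96.4 CPM in the unloaded libraries, against 156, 168, 190.4 and 147 CPM in the control libraries, and its call (-0.57, adjusted p = 0.0497) was lost when any library but unloaded replicate 3 or control replicate 4 was left out (-0.61 to -0.44, adjusted p between 0.068 and 0.16). Dusp1 (-0.82) was lost without unloaded replicate 1, 2 or 3 or control replicate 2 (-0.75 to -0.65, adjusted p between 0.056 and 0.078), and neither was called with the trend removed.

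The contractile apparatus changed gene by gene. Acta1 (chromosome 8, 123891758 to 123894775), the actin of adult skeletal muscle, had 24622, 26514, 28013 and 34342 CPM in the unloaded libraries, against 56556, 57998, 68743 and 51102 CPM in the control libraries, and its level per length was 19622 ± 2914 CPM per kb in unloaded and 40525 ± 5107 CPM per kb in control muscle (log2 fold change -1.05, SE 0.16, adjusted p = 2.38e-05; with the trend removed -0.72, adjusted p = 0.000416). Acta1 and Actc1 share much of their coding sequence, so reads common to both may be divided between them. Myh2 (chromosome 11, 67171027 to 67197517), the myosin of fast oxidative fibres, had 1024, 1008, 685 and 509 CPM in the unloaded libraries, against 2602, 2921, 2099 and 2453 CPM in the control libraries. Myh2 fell (log2 fold change -1.64, SE 0.21, adjusted p = 5.05e-06, and with the trend removed -1.48, adjusted p = 2.72e-05). Its share of the 4 adult myosin messages per length was 1.02% in unloaded and 2.57% in control muscle (means over 4 libraries). The other adult myosins were not called: Myh7 of slow fibres (adjusted p = 0.658), Myh1 (0.873) and Myh4 (0.236). Of 18 slow fibre genes 3 fell and 0 rose (16.7% and 0%), 2 and 0 in both fits. Without unloaded replicate 2, 7 fell. The slow light chain Myl3 had 91.7, 223, 133 and 80.5 CPM in the unloaded libraries, against 414, 464, 259.7 and 424 CPM in the control libraries, with unloaded replicate 2 the highest unloaded and control replicate 3 the lowest control (log2 fold change -1.56, SE 0.28, adjusted p = 0.000145; with the trend removed -1.24, adjusted p = 0.00221). Of 21 fast fibre genes 6 fell and 1 rose (28.6% and 4.76%), 3 and 1 in both fits. Mylk2 (chromosome 2, 152911281 to 152923065), the kinase that phosphorylates the myosin light chain in fast fibres, had 2545, 1856, 1739.9 and 1457 CPM in the unloaded libraries, against 815, 866, 725 and 895 CPM in the control libraries. Mylk2 rose (log2 fold change 1.2, SE 0.24, adjusted p = 0.000447; with the trend removed 1.48, adjusted p = 7.39e-05). Mybph, a myosin-binding protein, had 18.9, 46.8, 58.3 and 161 CPM in the unloaded libraries, against 319, 212, 436 and 316 CPM in the control libraries. Mybph fell (log2 fold change -2.17, SE 0.55, adjusted p = 0.00355; with the trend removed -1.86, adjusted p = 0.0121).

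Of 30 sarcomere and Z-disc genes 8 rose and 9 fell (26.7% and 30%, against 18.4% and 16.3% of all genes), 6 and 4 in both fits, and 5 rose without control replicate 1. Nexn, which ties actin at the Z-disc, had 82.6, 131, 107 and 140.5 CPM in the unloaded libraries, against 25.9, 26.5, 29.3 and 59.7 CPM in the control libraries. Nexn rose (log2 fold change 1.70, SE 0.27, adjusted p = 4.44e-05; with the trend removed 0.98, adjusted p = 0.00162). Neb, the ruler of the thin filament, had 3189, 4541, 3719 and 4938 CPM in the unloaded libraries, against 2210.1, 2038, 2392 and 2909.8 CPM in the control libraries. Neb rose (log2 fold change 0.78, SE 0.16, adjusted p = 0.000691; with the trend removed 0.54, adjusted p = 0.00551), and Myom1 of the M-band rose (0.54). The chaperoning methyltransferase gene Smyd1 fell (-0.76). In the dystrophin complex and costamere 5 of 24 genes rose and 5 fell (20.8% and 20.8%), 2 and 3 in both fits. Only 3 rose without control replicate 1, 2 or 3 or unloaded replicate 2. Dmd (chromosome X, 82814664 to 85205050), which encodes dystrophin, had 57.2, 63.4, 43.96 and 50.02 CPM in the unloaded libraries, against 10.5, 13.4, 10.5 and 21.1 CPM in the control libraries. Dmd rose (log2 fold change 1.95, SE 0.22, adjusted p = 1.68e-06; with the trend removed 1.31, adjusted p = 2.01e-06), whereas Cav3 (-0.77) and Dysf (-0.53) of the fibre membrane fell.

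Of 34 load-sensing genes 9 rose and 7 fell (26.5% and 20.6%, against 18.4% and 16.3% of all genes), 6 and 3 in both fits. Srf (chromosome 17, 46546838 to 46558267) itself had 94.9, 104, 103 and 110.2 CPM in the unloaded libraries, against 204, 181, 218 and 142 CPM in the control libraries with no overlap. Srf fell (log2 fold change -0.85, SE 0.12, adjusted p = 1.1e-05; with the trend removed -0.48, adjusted p = 0.000953). Itgb1bp2, the integrin partner melusin, had 24.9, 46.5, 44.7 and 73.3 CPM in the unloaded libraries, against 117, 103, 141 and 110.1 CPM in the control libraries. Itgb1bp2 fell (log2 fold change -1.31, SE 0.29, adjusted p = 0.00105; with the trend removed -1.16, adjusted p = 0.00275), and Vcl, which links integrins to actin, fell (-0.59; -0.39 without control replicate 3, the highest). Xirp2, an actin-binding protein of the intercalated disc and Z-disc, had 730.1, 979, 699 and 1103 CPM in the unloaded libraries, against 207, 247, 239.6 and 588 CPM in the control libraries. Xirp2 rose (log2 fold change 1.45, SE 0.27, adjusted p = 0.000208; with the trend removed 0.93, adjusted p = 0.00162). Nrap, a scaffold of myofibril assembly, had 4947, 3285, 2391 and 2106 CPM in the unloaded libraries, against 1935, 1753, 1389 and 1977 CPM in the control libraries; its change of 0.85 was 0.56 without unloaded replicate 1 and then not called (adjusted p = 0.0533). Ankrd1, a titin-bound stretch sensor, had 32.6, 11.1, 3.47 and 5.34 CPM in the unloaded libraries, against 3.63, 2.75, 2.83 and 3.43 CPM in the control libraries. Unloaded replicate 3 lay within the control range, and without unloaded replicate 1 the call was lost (1.08, adjusted p = 0.109, against 2.06 with it). Csrp3, another Z-disc stretch sensor, had 147, 19.8, 10.4 and 7.79 CPM in the unloaded libraries, against 66.1, 43.1, 14.2 and 34.7 CPM in the control libraries, and was not called (0.23, adjusted p = 0.796). Unloaded replicate 1 was the highest library, and without it Csrp3 was called lower (-1.64, adjusted p = 0.00437). Without unloaded replicate 1 the list gave 5 rises, and without unloaded replicate 2, unloaded replicate 3 or control replicate 3 it gave 3 or 4 falls.

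In calcium release and handling 12 of 39 genes rose and 7 fell (30.8% and 17.9%), 9 and 1 in both fits, and 4 fell without unloaded replicate 1 or 2. Besides Trdn, the calcium channel subunit gene Cacna2d1 had 247, 338, 304 and 343 CPM in the unloaded libraries, against 85.9, 91.3, 72.1 and 153 CPM in the control libraries. Cacna2d1 rose (log2 fold change 1.61, SE 0.20, adjusted p = 3.75e-06; with the trend removed 0.90, adjusted p = 2.71e-05). Ppp3ca, the catalytic subunit of the calcium-dependent phosphatase calcineurin, rose (1.15; 0.91 with the trend removed). Sln, whose product sarcolipin inhibits the calcium pump, was near the limit of detection in controls: it had 2.78, 3.78, 1.11 and 1.46 CPM in the unloaded libraries, against 0.9002, 0.285, 0.1697 and 0.371 CPM in the control libraries. Sln rose (log2 fold change 2.42, SE 0.50, adjusted p = 0.000636; with the trend removed 2.34, adjusted p = 0.00147). Sypl2, a protein of the triad junction, had 149, 251, 356 and 449 CPM in the unloaded libraries, against 779, 744, 1142 and 728 CPM in the control libraries. Sypl2 fell (log2 fold change -1.49, SE 0.29, adjusted p = 0.000349; with the trend removed -1.36, adjusted p = 0.00149). Casq1, the calcium buffer calsequestrin, had 1057, 2035, 2426 and 3446 CPM in the unloaded libraries, against 4039.6, 4085, 4719 and 4556 CPM in the control libraries. Casq1 fell (log2 fold change -0.96, SE 0.31, adjusted p = 0.0195; with the trend removed -0.81, adjusted p = 0.052). Its call was lost without unloaded replicate 1 or 2 (-0.72 and -0.91, adjusted p = 0.075 and 0.052).

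Of 29 neuromuscular junction and denervation genes 5 rose and 7 fell (17.2% and 24.1%), 2 and 3 in both fits. Only 2 or 3 rose when unloaded replicate 1 or 2 or any control was left out. Agrn encodes agrin, whose nerve-made form clusters acetylcholine receptors. The form and the cells behind its RNA in whole muscle were not tested. Agrn had 2.76, 3.12, 3.96 and 3.15 CPM in the unloaded libraries, against 6.45, 7.69, 6.196 and 6.28 CPM in the control libraries. Agrn fell (log2 fold change -1.04, SE 0.22, adjusted p = 0.000828; with the trend removed -0.76, adjusted p = 0.00551). Colq, which anchors acetylcholinesterase, fell (-0.85), and the receptor subunit gene Chrnb1 rose (0.70) although its libraries overlapped. Gadd45a (chromosome 6, 67035096 to 67037407), a growth arrest gene that also rises in denervated muscle, had 28.9, 12.3, 9.901 and 8.54 CPM in the unloaded libraries, against 3.33, 3.37, 8.43 and 4.42 CPM in the control libraries. Control replicate 3 came close to unloaded replicate 4, and without unloaded replicate 1 the change was 1.07, against 1.61 with it, called either way. The myogenic factor Myog, high in denervated muscle, had 2.55, 1.4996, 2.198 and 1.44 CPM in the unloaded libraries, against 2.79, 2.97, 2.21 and 3.19 CPM in the control libraries, and was not called (adjusted p = 0.151).

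Nuclear genes of the respiratory chain were lower as groups. Of 36 complex I genes 20 fell (55.6%, against 16.3% of all genes) and 0 rose, with a median log2 fold change of -0.36. Of 43 genes of complexes II to V 26 fell and 1 rose (median -0.41). With the trend removed the medians were -0.19 and -0.24, and 8 and 13 of the falls were called in both fits. Ndufb8 of complex I had 199, 290.5, 292 and 334 CPM in the unloaded libraries, against 453, 434, 567 and 412 CPM in the control libraries. Ndufb8 fell (log2 fold change -0.74, SE 0.17, adjusted p = 0.00152; with the trend removed -0.86, adjusted p = 0.000854). Atp5g1, a ring subunit of ATP synthase, had 319, 383, 384 and 351 CPM in the unloaded libraries, against 639, 631, 879 and 527 CPM in the control libraries. Atp5g1 fell (log2 fold change -0.90, SE 0.14, adjusted p = 2.43e-05; with the trend removed -1.07, adjusted p = 5.22e-05). Sdhc of complex II had 197, 213, 243 and 249.6 CPM in the unloaded libraries, against 357, 329, 393 and 323 CPM in the control libraries. Sdhc fell (log2 fold change -0.64, SE 0.14, adjusted p = 0.000857; with the trend removed -0.65, adjusted p = 0.00145). In each of these the 4 unloaded libraries lay below the 4 controls and control replicate 3 was the highest library. Cox6c of complex IV was the exception, with 263, 301, 277 and 295 CPM in the unloaded libraries, against 156, 213, 152 and 235 CPM in the control libraries (log2 fold change 0.59, SE 0.14, adjusted p = 0.00178; with the trend removed 0.72, adjusted p = 0.000695).

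Regulators of mitochondrial biogenesis went both ways, with 5 of 28 higher and 8 lower (17.9% and 28.6%), 3 and 4 in both fits. Perm1, a muscle regulator under PGC-1 control listed in the files as 2310042D19Rik, had 121, 99.3, 116 and 113 CPM in the unloaded and 289.96, 219.8, 255 and 211 CPM in the control libraries (log2 fold change -1.12, SE 0.16, adjusted p = 1.43e-05; with the trend removed -0.95, adjusted p = 0.000109). The nuclear receptor gene Esrra had 57.997, 76.9, 85.8 and 89.1 CPM in the unloaded libraries, against 143, 147, 143 and 106 CPM in the control libraries. Esrra fell (log2 fold change -0.80, SE 0.16, adjusted p = 0.000502; with the trend removed -0.44, adjusted p = 0.0257), as did Vegfb (-0.78) and Sirt3 (-0.87). Rises were in Gabpa (1.18), Tfam (0.56) and Sirt1 (1.14), all in both fits. Ppargc1a, which encodes PGC-1 alpha, had 12.7, 14.3, 14.7 and 15.1 CPM in the unloaded libraries, against 8.52, 9.11, 9.02 and 15.1 CPM in the control libraries, and was not called (log2 fold change 0.44, SE 0.21, adjusted p = 0.107). Of 30 mitochondrial carriers 11 fell and 3 rose (36.7% and 10%), 9 and 2 in both fits. Slc25a39, a glutathione carrier, had 33.7, 34.2, 35.2 and 38.8 CPM in the unloaded libraries, against 81.6, 64.5, 89.7 and 55.99 CPM in the control libraries. Slc25a39 fell (log2 fold change -1.04, SE 0.14, adjusted p = 8.44e-06; with the trend removed -0.67, adjusted p = 0.00036).

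Among 32 genes of the citric acid cycle and pyruvate dehydrogenase 7 rose and 8 fell (21.9% and 25%, near 18.4% and 16.3% of all genes): Pdha1 (0.84) and Sucla2 (0.94) were higher, Dlst (-0.58) and Dlat (-0.51) lower. Of 40 fatty acid genes 6 rose and 7 fell (15% and 17.5%), near the background as well. Acadl, a dehydrogenase of long-chain fats, had 246, 205, 158 and 145 CPM in the unloaded libraries, against 111, 127, 98.8 and 119 CPM in the control libraries. Acadl rose (log2 fold change 0.72, SE 0.16, adjusted p = 0.000995; with the trend removed 0.48, adjusted p = 0.0287). Fabp3, the muscle fatty acid binding protein, had 193, 204, 129 and 149.9 CPM in the unloaded libraries, against 269, 355, 329 and 335 CPM in the control libraries. Fabp3 fell (log2 fold change -0.93, SE 0.14, adjusted p = 2.9e-05; with the trend removed -0.63, adjusted p = 0.00216). In glycolysis 9 of 22 genes fell and 1 rose (40.9% and 4.55%), 5 and 1 in both fits. The median was -0.41, and -0.18 with the trend removed. Pgam2, the muscle phosphoglycerate mutase, had 856, 1220.2, 1499.98 and 2112 CPM in the unloaded libraries, against 3474, 2983, 4279.9 and 2900.01 CPM in the control libraries, with unloaded replicate 4 the highest unloaded library (log2 fold change -1.26, SE 0.28, adjusted p = 0.00115; with the trend removed -0.88, adjusted p = 0.0103). Fbp2, the gluconeogenic bisphosphatase of muscle, was the 1 rise, with 67.2, 68.7, 84.2 and 79.8 CPM in the unloaded libraries, against 33.9, 39.5, 43.2 and 45.4 CPM in the control libraries (log2 fold change 0.89, SE 0.21, adjusted p = 0.00163; with the trend removed 1.05, adjusted p = 0.000665).

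Glucose uptake and glycogen genes rose in 9 and fell in 2 of 27 cases (33.3% and 7.41%), 6 and 1 in both fits. Epm2a, the glycogen phosphatase laforin, had 20.2, 29.7, 26.4 and 26.3 CPM in the unloaded libraries, against 10.7, 13.3, 11.1 and 13.7 CPM in the control libraries. Epm2a rose (log2 fold change 1.07, SE 0.14, adjusted p = 4.73e-06; with the trend removed 1.04, adjusted p = 7.22e-06). The glycogen-targeting subunit gene Ppp1r3a rose (1.79; 0.73 with the trend removed), opposite to its relative Ppp1r3c. The transporter gene Slc2a3 rose (1.27), and Slc2a4, which encodes the insulin-responsive GLUT4, had 490.4, 444, 475 and 455 CPM in the unloaded libraries, against 717, 659, 771 and 559 CPM in the control libraries. Slc2a4 fell (log2 fold change -0.54, SE 0.15, adjusted p = 0.00764), but was not called once the trend was taken out (-0.29, adjusted p = 0.117). Lipid synthesis genes fell in 7 and rose in 2 of 23 cases (30.4% and 8.7%), 3 and 1 in both fits. Only 4 fell without unloaded replicate 2. Mlxipl, the sugar-sensing factor ChREBP, had 22.5, 24.1, 22.9 and 29.3 CPM in the unloaded libraries, against 47.5, 41.1, 43.9 and 40.7 CPM in the control libraries. Mlxipl fell (log2 fold change -0.81, SE 0.12, adjusted p = 2.91e-05; with the trend removed -0.55, adjusted p = 0.00126).

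Creatine and polyamine genes fell in 7 of 21 cases and rose in 1 (33.3% and 4.76%), 5 and 0 in both fits. Next to Gamt, the mitochondrial creatine kinase gene Ckmt2 had 255, 389, 383 and 491 CPM in the unloaded libraries, against 915, 947, 1185 and 923 CPM in the control libraries (log2 fold change -1.39, SE 0.25, adjusted p = 0.000136; with the trend removed -1.26, adjusted p = 0.000359), and the creatine transporter gene Slc6a8 had 71.9, 62.9, 71.4 and 72.3 CPM in the unloaded libraries, against 117, 102, 103 and 117 CPM in the control libraries. Slc6a8 fell (log2 fold change -0.66, SE 0.13, adjusted p = 0.000309; with the trend removed -0.40, adjusted p = 0.0121). The falls called in both fits thus took in synthesis, uptake and use of creatine. Mat2a, which makes S-adenosylmethionine, had 50.5, 55.5, 59.3 and 68.1 CPM in the unloaded libraries, against 89.9, 94.4, 179 and 77.03 CPM in the control libraries; control replicate 3 was far above the others, and without it the change was -0.59 and not called (adjusted p = 0.084), against -0.92 with it. The list gave 3 or 4 falls without unloaded replicate 1, unloaded replicate 2 or control replicate 3. In branched-chain amino acid metabolism 5 of 29 genes rose and 4 fell (17.2% and 13.8%; 2 fell without unloaded replicate 1 or control replicate 3), among them Acadsb (1.27) and Dbt (1.45) of breakdown as rises and the transporter gene Slc38a4 (-0.79) as a fall, each in both fits.

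Tendon and collagen genes had the lowest medians of all lists. Of 27 collagen chain genes 18 fell (66.7%, against 16.3% of all genes) and 0 rose, with a median log2 fold change of -1.28 and 16 falls in both fits. Col1a1 (chromosome 11, 94936224 to 94953042), the main fibrillar chain, had 14.1, 19.002, 48.9 and 87.5 CPM in the unloaded libraries, against 187, 258, 215 and 239.8 CPM in the control libraries. Col1a1 fell (log2 fold change -2.41, SE 0.43, adjusted p = 0.000158; with the trend removed -2.14, adjusted p = 0.000646). Col6a2, of the microfibrils around fibres, had 12.4, 18.2, 30.96 and 56.04 CPM in the unloaded libraries, against 106, 120.4, 122 and 114 CPM in the control libraries. Col6a2 fell (log2 fold change -1.98, SE 0.34, adjusted p = 8.65e-05; with the trend removed -1.74, adjusted p = 0.000508). Col4a1, of the basement membrane, had 62.4, 48.6, 68.2 and 106 CPM in the unloaded libraries, against 169, 205, 168 and 223 CPM in the control libraries. Col4a1 fell (log2 fold change -1.42, SE 0.24, adjusted p = 8.4e-05; with the trend removed -1.17, adjusted p = 0.000404). For each, all unloaded libraries lay below the controls, in an order that recurred: replicates 1 and 2 lowest and replicate 4 highest. Over the collagen list the median relative to controls was -1.81, -1.88, -1.26 and -0.61 on the log2 scale in unloaded replicates 1 to 4. Col3a1 (chromosome 1, 45311538 to 45349706) had 21.998, 23.8, 58.5 and 154 CPM in the unloaded libraries, against 169.7, 216, 217 and 189.8 CPM in the control libraries. Col3a1 fell (log2 fold change -1.62, SE 0.50, adjusted p = 0.0138); its change was -2.51 without unloaded replicate 4, and -1.34 and not called without unloaded replicate 2 (adjusted p = 0.0523), with -1.33 and 0.0505 without unloaded replicate 1.

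Genes that fold and crosslink collagen fell with the chains, 17 of 26, with 1 rise (65.4% and 3.85%), 12 and 1 in both fits. Serpinh1, the collagen chaperone HSP47, had 16.3, 18.98, 28.1 and 31.7 CPM in the unloaded libraries, against 79.6, 66.6, 82.98 and 73.8 CPM in the control libraries. Serpinh1 fell (log2 fold change -1.67, SE 0.19, adjusted p = 1.68e-06; with the trend removed -1.40, adjusted p = 7.22e-06). P4ha1, a prolyl hydroxylase that stabilises the triple helix, had 26.3, 25.2, 27.8 and 24.7 CPM in the unloaded libraries, against 43.3, 39.1, 53.4 and 38.9 CPM in the control libraries. P4ha1 fell (log2 fold change -0.75, SE 0.14, adjusted p = 0.000251; with the trend removed -0.99, adjusted p = 0.000155). Lox, which crosslinks collagen, was the 1 rise, with 5.45, 5.01, 4.396 and 3.82 CPM in the unloaded libraries, against 1.83, 2.16, 1.98 and 3.25 CPM in the control libraries (log2 fold change 1.02, SE 0.27, adjusted p = 0.00464; with the trend removed 0.65, adjusted p = 0.048). Of 44 other matrix genes 25 fell and 4 rose (56.8% and 9.09%), 16 and 0 in both fits, and 2 rose without control replicate 3. The small proteoglycan genes were divided: Bgn had 17.9, 27.5, 28.3 and 35.05 CPM in the unloaded libraries, against 61.5, 58.4, 75.4 and 58.5 CPM in the control libraries. Bgn fell (log2 fold change -1.22, SE 0.15, adjusted p = 3.82e-06; with the trend removed -1.06, adjusted p = 3.18e-05), as did Fmod (-1.76) and Prelp (-1.01), while Dcn (0.56), Aspn (1.88) and Ogn (1.06), all under 43% GC, were called higher but not with the trend removed (0.15, 0.67 and 0.02), and Dcn was also lost without control replicate 1 or 3 (0.47 and 0.39, adjusted p = 0.068 and 0.081).

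Tendon and cartilage matrix genes fell in 11 of 17 cases with 0 rises, and the same 11 were called in both fits (median -1.49). Thbs4, a thrombospondin of tendon and of stressed muscle, had 24.6, 29.9, 35.2 and 36.02 CPM in the unloaded libraries, against 81.05, 82.4, 112 and 76.5 CPM in the control libraries. Thbs4 fell (log2 fold change -1.49, SE 0.17, adjusted p = 2.06e-06; with the trend removed -1.29, adjusted p = 1.36e-05). Comp, which organises collagen fibrils in tendon, had 1.4001, 1.97, 3.18 and 1.84 CPM in the unloaded libraries, against 9.84, 10.3, 7.98 and 10.1 CPM in the control libraries. Comp fell (log2 fold change -2.18, SE 0.31, adjusted p = 1.36e-05; with the trend removed -1.85, adjusted p = 0.000103). Chad, a collagen-binding leucine-rich protein, had 3.67, 3.68, 6.15 and 3.96 CPM in the unloaded libraries, against 27.3, 25.7, 19.1 and 27.1 CPM in the control libraries. Chad fell (log2 fold change -2.5, SE 0.34, adjusted p = 8.86e-06; with the trend removed -2.21, adjusted p = 4.64e-05). No unloaded library reached the control range in any of these. How much tendon was dissected with each muscle is not given in the labels. The summed level of the 11 tendon markers was 79.2 to 153 CPM in unloaded and 309 to 361 CPM in control muscle. These markers include Thbs4, Comp, Chad and Col11a1 of this list, and Col11a1 is also in the list of collagen chains. The part of dissected tendon in the fall of collagen genes was not tested.

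**Figure D4:**
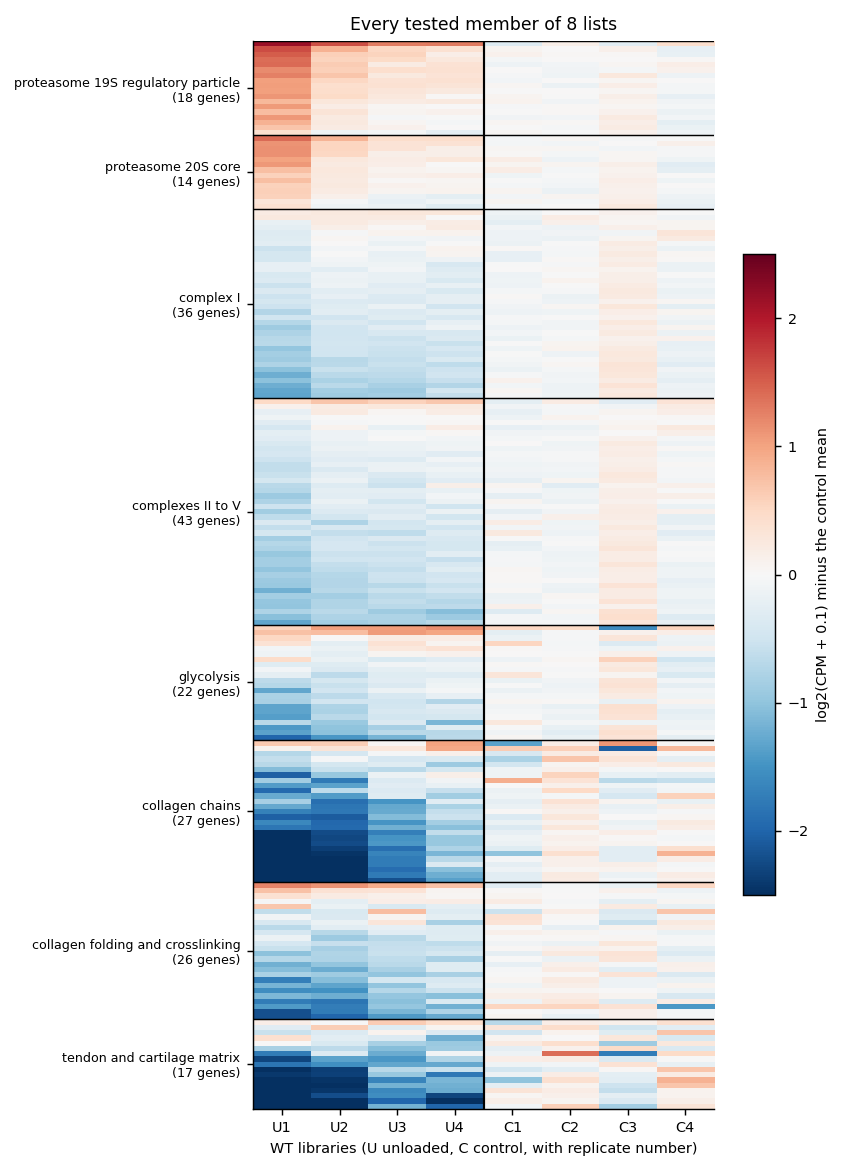
Every tested member of 8 lists (rows, ordered within a list by the unloaded mean) in the 4 unloaded (U1 to U4) and 4 control (C1 to C4) WT libraries; colour is log2(CPM + 0.1) minus the control mean, red above and blue below. Proteasome genes are strongest in U1, and collagen genes are lowest in U1 and U2.

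Chaperones were lower more often than higher: 18 of 37 fell and 9 rose (48.6% and 24.3%), 11 and 2 in both fits. Only 5 rose without control replicate 1 or 3 and 4 without unloaded replicate 1. Hspa8, the constitutive HSP70, had 773, 874, 739.8 and 838 CPM in the unloaded libraries, against 1831, 1548, 2279 and 1510.5 CPM in the control libraries. Hspa8 fell (log2 fold change -1.15, SE 0.24, adjusted p = 0.000574; with the trend removed -1.04, adjusted p = 0.00182). Its partners Hsph1 (-0.92) and Dnajb1 (-1.2) fell too, and Cryab, the small heat shock protein of the Z-disc, had 425, 342, 230.2 and 249 CPM in the unloaded libraries, against 709, 619.96, 827 and 496 CPM in the control libraries (log2 fold change -1.09, SE 0.19, adjusted p = 0.000131; with the trend removed -0.79, adjusted p = 0.00314). Hsp90b1 of the endoplasmic reticulum rose (0.88), called in both fits. In the integrated stress and unfolded protein response 8 of 35 genes rose and 2 fell (22.9% and 5.71%), 4 and 1 in both fits. Ppp1r15a, which restores translation by dephosphorylating eIF2, had 74.1, 40.1, 19.9 and 26.7 CPM in the unloaded libraries, against 12.1, 14.1, 7.61 and 12.4 CPM in the control libraries. Ppp1r15a rose (log2 fold change 1.8, SE 0.45, adjusted p = 0.00284; with the trend removed 2.07, adjusted p = 0.00139).

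Of 32 p53 targets and growth arrest genes 12 rose (37.5%, against 18.4%) and 2 fell, 7 and 2 in both fits. Cdkn1b, the cell cycle inhibitor p27, had 19.6, 24.1, 22.2 and 23.9 CPM in the unloaded libraries, against 7.86, 10.1, 6.85 and 11.7 CPM in the control libraries with no overlap. Cdkn1b rose (log2 fold change 1.30, SE 0.19, adjusted p = 1.43e-05; with the trend removed 1.1, adjusted p = 7.39e-05). Gadd45b rose (1.07), like Gadd45a and Eda2r above. Cdkn1a, the p21 gene and the best known target, had 68.03, 50.2, 30.4 and 24.7 CPM in the unloaded libraries, against 34.9, 41.1, 9.25 and 17.5 CPM in the control libraries, and was not called (log2 fold change 0.75, SE 0.45, adjusted p = 0.199). Among 34 antioxidant and metal binding genes 6 rose and 8 fell (17.6% and 23.5%; 5 fell without control replicate 3 or unloaded replicate 2), with glutathione reductase, Gsr (1.34), higher and the extracellular superoxide dismutase, Sod3 (-1.06), lower in both fits.

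Immediate early genes, which respond to contraction within minutes, fell in 9 of 29 cases and rose in 2 (31% and 6.9%), 5 and 1 in both fits. No more than 1 rose when any library but unloaded replicate 4 or control replicate 2 was left out. Zfp36, an RNA decay factor, had 5.28, 6.27, 5.27 and 7.84 CPM in the unloaded libraries, against 17.6, 20.98, 11.97 and 11.7 CPM in the control libraries (log2 fold change -1.34, SE 0.30, adjusted p = 0.00125; with the trend removed -1.13, adjusted p = 0.00558), and Dusp8, a phosphatase of stress kinases, had 27.7, 27.4, 18.6 and 23.5 CPM in the unloaded libraries, against 58.6, 65.6, 58.4 and 61.03 CPM in the control libraries. Dusp8 fell (log2 fold change -1.33, SE 0.19, adjusted p = 1.79e-05; with the trend removed -1.03, adjusted p = 0.000239). Clock genes rose in 8 of 20 cases (40%) and fell in 1, 7 and 1 in both fits. Rora, an activator of Bmal1 transcription, had 18.1, 17.1, 13.1 and 12.9 CPM in the unloaded libraries, against 2.46, 4.08, 2.38 and 5.41 CPM in the control libraries. Rora rose (log2 fold change 2.09, SE 0.28, adjusted p = 6.33e-06; with the trend removed 1.43, adjusted p = 2.86e-05). Nfil3, a repressor in the same loop, was the 1 fall, with 8.4004, 10.9, 8.498 and 8.71 CPM in the unloaded libraries, against 17.4, 24.1, 41.7 and 14.6 CPM in the control libraries (log2 fold change -1.42, SE 0.32, adjusted p = 0.00121; with the trend removed -1.17, adjusted p = 0.00683). The time of day at which muscles were taken is not in the labels, and its part in these values was not tested.

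Few markers of other cell types were called higher. Of 18 macrophage and leukocyte markers 5 fell and 0 rose (27.8% and 0%), 3 and 0 in both fits. Of all genes 16.3% fell and 18.4% rose, 8.05% and 9.98% in both fits. The summed level of these markers was 54.5 to 72.5 CPM in unloaded and 79.7 to 91.6 CPM in control libraries. Csf1r, the receptor that macrophages depend on, had 7.15, 9.14, 10.7 and 12.97 CPM in the unloaded libraries, against 19.3, 19.4, 16.6 and 18.8 CPM in the control libraries. Csf1r fell (log2 fold change -0.89, SE 0.15, adjusted p = 0.000108; with the trend removed -0.70, adjusted p = 0.00143). Of 21 endothelial markers 6 fell and 1 rose, Fabp4 (28.6% and 4.76%), 3 and 0 in both fits. None rose without control replicate 1, 2 or 3 or unloaded replicate 1, 2 or 4. The summed level of the endothelial markers was 458 to 513 CPM in unloaded and 549.7 to 675 CPM in control libraries. Vwf, the von Willebrand factor of endothelium, had 26.2, 24.9, 30.6 and 24.8 CPM in the unloaded libraries, against 62.96, 49.98, 59.1 and 45.8 CPM in the control libraries. Vwf fell (log2 fold change -1.03, SE 0.15, adjusted p = 1.87e-05; with the trend removed -0.82, adjusted p = 0.000124). Of 13 pericyte and smooth muscle markers 7 fell and Rgs5 rose (1.22), that is 53.8% and 7.69%, with 4 and 1 in both fits. Acta2 is listed at 0 in all 8 libraries, and the sum of this list is mostly the fibre gene Des.

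Fibroblast markers fell in 6 of 14 cases, and Dcn was the 1 called higher (42.9% and 7.14%), 5 and 0 in both fits. Without unloaded replicate 1, 3 fell. The list shares Col1a1 and Col3a1 with the collagen chains. The summed level of the fibroblast markers overlapped between groups, at 1054 to 1514 CPM in unloaded and 1210 to 1659.7 CPM in control libraries. The membrane marker Ly6a had 18.8, 18.4, 19.9 and 20.9 CPM in the unloaded libraries, against 32.7, 25.97, 36.9 and 24.8 CPM in the control libraries. Ly6a fell (log2 fold change -0.63, SE 0.12, adjusted p = 0.000241; with the trend removed -0.59, adjusted p = 0.000309). Of 11 tendon markers 9 fell (81.8%), all in both fits. This list shares Thbs4, Comp, Chad and Col11a1 with the tendon and cartilage matrix genes, so these falls are not separate results. Of 7 adipocyte and 5 erythrocyte markers 0 were called with edgeR, DESeq2 or limma, and 0 and 1 had an unadjusted p below 0.05, and the satellite cell list had 1 rise (Myf5, at 0.488, 0.822, 0.293 and 0.7596 CPM in unloaded and 0.18004, 0, 0 and 0.124 CPM in control libraries). The 8 fibre markers summed to 164381 to 221206 CPM in unloaded and 246402 to 299837 CPM in control libraries, and Acta1, Casq1 and Mylpf were called lower, Acta1 alone in both fits. The 4 Y-linked genes tested were called higher, Ddx3y with 63.4, 45.6, 39.4 and 39.3 CPM in the unloaded libraries, against 12.2, 14.1, 6.39 and 14.4 CPM in the control libraries (log2 fold change 1.99, SE 0.24, adjusted p = 2.97e-06; with the trend removed 0.85, adjusted p = 0.000352), and 2 of them in both fits. Whether the composition of the muscle contributed to any change above was not tested.

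The unloading response of WT muscle was tested against that of muscle labelled Notch2-mKO, which shares no library with it. Notch2 itself had 1.47, 1.38, 1.58 and 1.29 CPM in unloaded and 2.12, 1.25, 1.55 and 2.55 CPM in control libraries labelled Notch2-mKO, within or near the WT range given above, so its whole-gene count does not check these labels. With edgeR 0 of 13048 genes (0.00%) differed at an adjusted p below 0.05, 1875 had an unadjusted p below 0.05 (14.4%), and DESeq2 called 119 (0.912%). Without WT control replicate 4, 429 genes (3.29%) were called, and without any other library of the 4 groups at most 12 were. Igfn1 changed by 2.88 on the log2 scale in WT, against 2.74 in muscle labelled Notch2-mKO (difference 0.14, SE 0.51, adjusted p = 0.932), where it had 31.9, 30.5, 65.3 and 74.1 CPM in unloaded and 4.64, 10.7, 8.24 and 6.71 CPM in control libraries. The log2 fold change of Trdn was 2.88 in WT and 1.18 in muscle labelled Notch2-mKO (difference 1.70, SE 0.51, adjusted p = 0.163). That of Actc1 was -3.84 in WT and -2.92 in muscle labelled Notch2-mKO (difference -0.92, SE 0.87, adjusted p = 0.685) and that of Col1a1 was -2.41 in WT and -1.65 in muscle labelled Notch2-mKO (difference -0.76, SE 0.59, adjusted p = 0.599). That of Fbxo32 was 2.06 in WT and 1.54 in muscle labelled Notch2-mKO (difference 0.52, SE 0.77, adjusted p = 0.817). Each difference is WT minus Notch2-mKO. The base composition measure was 0.02 ± 0.23 in unloaded and -0.33 ± 0.28 in control libraries labelled Notch2-mKO (SD, n = 4 each), and its part in these differences was not tested.

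Unloaded WT muscle was also compared directly with diabetic WT muscle, the other wasting condition, since both responses share the WT controls. In unloaded muscle 162 genes were higher (1.24%) and 302 lower (2.31%) than in diabetic muscle (edgeR), 3.56% of all genes together. These counts moved with single libraries: 86, 95 and 104 were higher without unloaded replicates 1, 2 and 3, and 81 and 101 without diabetic replicates 2 and 3, while 197 were lower without diabetic replicate 2. A fit of the compared libraries alone gave 63 higher and 194 lower, and limma 98 and 202, against 250 and 447 with DESeq2. The largest difference among the higher genes was Scd1, the desaturase that makes monounsaturated fat, with 49.6, 89.9, 71.1 and 59.4 CPM in unloaded and 9.502, 5.86, 9.07 and 18.9 CPM in diabetic muscle (log2 fold change 2.64, SE 0.53, adjusted p = 0.00524). WT controls had 96.5, 70.8, 34.7 and 102 CPM, and Scd1 was not called between unloaded and control muscle (adjusted p = 0.817). Nos1, the nitric oxide synthase bound to dystrophin, had 96.5, 74.3, 74.9 and 55.5 CPM in unloaded and 31.9, 27.9, 37.9 and 30.7 CPM in diabetic muscle (log2 fold change 1.23, SE 0.18, adjusted p = 0.000398). Mb, the oxygen store myoglobin, had 1264, 1451, 1262 and 1206 CPM in unloaded and 735, 517, 263 and 785 CPM in diabetic muscle (log2 fold change 1.17, SE 0.23, adjusted p = 0.00397; adjusted p = 0.0578 in the fit of the compared libraries alone). Neither Nos1 nor Mb was called between unloaded and control muscle (adjusted p = 0.211 and 0.733).

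Genes lower in unloaded than in diabetic muscle included stress and lipid genes. Ddit4 had 6.55, 12.6, 8.37 and 10.99 CPM in unloaded and 75.8, 111, 149.8 and 175 CPM in diabetic muscle (log2 fold change -3.73, SE 0.58, adjusted p = 0.000555), and Ppp1r3c had 76.9, 143, 67.3 and 76.8 CPM in unloaded and 535, 772, 831 and 1469 CPM in diabetic muscle (log2 fold change -3.31, SE 0.60, adjusted p = 0.00292). No library overlapped in either gene. Acot1, a thioesterase induced by fatty acids through PPAR alpha, had 1.91, 2.16, 0.963 and 1.03 CPM in unloaded and 11.5, 21.5, 19.97 and 12.99 CPM in diabetic muscle (log2 fold change -3.43, SE 0.47, adjusted p = 0.000192), and was not called between unloaded and control muscle (adjusted p = 0.306). Angptl4, an inhibitor of lipoprotein lipase, had 2.08 ± 0.686 CPM in unloaded and 13.6 ± 9.31 CPM in diabetic muscle (log2 fold change -2.71, SE 0.46, adjusted p = 0.00129; mean ± SD, n = 4 each). Of 40 fatty acid oxidation and uptake genes 20 were lower and 0 higher in unloaded than in diabetic muscle, against 2.31% and 1.24% of all genes. The 20 were 13 without unloaded replicate 3, unloaded replicate 4 or diabetic replicate 2. Of 27 collagen chains, 36 complex I genes and 17 tendon genes edgeR called 0 in either direction in this direct test, while 3, 6 and 2 had an unadjusted p below 0.05. DESeq2 called 1, 1 and 0 of them and limma 0, 2 and 0. Of all genes edgeR called 3.56% in this test, a share that would place few or no calls in lists of this size.

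**Figure D5:**
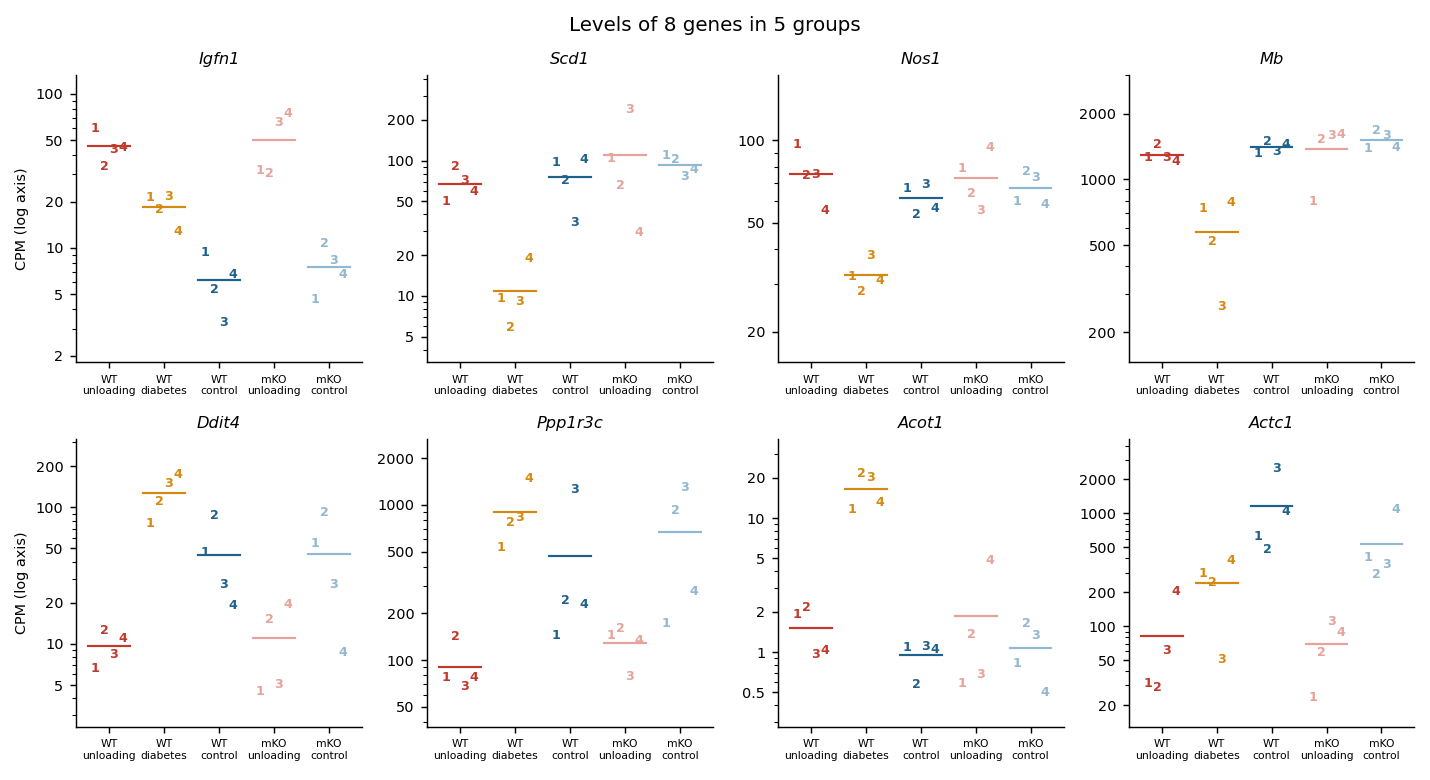
CPM on a log axis for 8 genes in WT unloading, WT diabetes, WT control and muscle labelled Notch2-mKO unloading and control, each library shown by its replicate number with a line at the group mean. Ddit4 and Ppp1r3c are low in both unloaded groups, and Scd1 is low in the 4 diabetic libraries.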

How the data were processed

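Gastrocnemius RNA of 24 libraries in 6 groups of 4 was read from 4 tables. Expected counts per RefSeq gene model on mm10, not scaled for depth, were deposited by the authors (per the file headers and the submitters' processing notes). The authors also deposited log2 values, which per the file headers are normalized; from the values they are centred on the controls of each table, with low values set to a floor. Neither the aligner nor the counter, its strand setting or its handling of multi-mapping reads is given in the sources used here.

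Counts were rounded to whole numbers, 36172 gene models were filtered with filterByExpr to 13048, and libraries were scaled by TMM. edgeR 4.0.16 (R 4.3.3) fitted a coefficient for each of the 6 groups, which share 1 estimate of the spread, and the quasi-likelihood F test was adjusted by the Benjamini-Hochberg method over all 13048 genes. An adjusted p with no tool beside it is from this test. Each SE is the size of the log2 fold change divided by the square root of its F statistic. Per-library values are CPM. The trend with GC content and transcript length was removed through spline offsets (5 degrees of freedom). The fit was also run on simulated data, with counts drawn from the means of these libraries for the 13048 genes. They were drawn with and without a GC trend added to the unloaded WT libraries, and the outcome is not reported here. The common biological coefficient of variation was 19.97%. Alternatives used limma 3.58.1 on the authors' log2 values, DESeq2 1.42.0, upper quartile scaling, no filter, a replicate block, the compared libraries alone and each library left out.

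The 53 gene lists and the members described were chosen with earlier results of these data known, and no list was tested as a set. Of the list genes 9 were matched through older symbols and 34 did not pass the filter. Genes were named by rule: the 12 largest rises and falls among called genes with at least 2 CPM and no overlap of libraries, up to 4 called members of each list in each direction, 27 anchors whatever their p, and up to 8 genes in each direction for the other comparisons. Some list members are not reported here. Smad7 and Bmpr1a were added after their values were seen. Replicate numbers were checked for pairing through the correlation of deviations from the group means.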

Additional observations from a re-analysis of the deposited data

Results flagged for a closer look

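A library stood apart when its gap to the nearest of the other libraries of its group, divided by the range of the group, was above Dixon's 95% critical value for 4 samples. Among 190 genes described, in 380 groups of 4, this was so 29 times; chance flags about 1 in 20 groups. Genes with 1 such library are given below as CPM, with the range of the other libraries of the group.

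Unloaded replicate 1 was the highest of its group for Csrp3 with 147 CPM against 7.79 to 19.8 CPM, Psme4 with 441 CPM against 264 to 291 CPM and Ufd1l with 38.6 CPM against 29.3 to 30.4 CPM. It was the lowest for Colq with 5.69 CPM against 6.98 to 7.22 CPM. Unloaded replicate 2 was the highest of its group for Nfil3 with 10.9 CPM against 8.4004 to 8.71 CPM and Ppp1r3c with 143 CPM against 67.3 to 76.9 CPM. It was the lowest for Slc6a8 with 62.9 CPM against 71.4 to 72.3 CPM. Unloaded replicate 3 was the highest of its group for Chad with 6.15 CPM against 3.67 to 3.96 CPM and Zfp960 with 5.13 CPM against 4.39 to 4.52 CPM. It was the lowest for Atg3 with 22.1 CPM against 23.9 to 24.2 CPM. Unloaded replicate 4 was the highest of its group for Id1 with 3.36 CPM against 2.503 to 2.55 CPM.

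Control replicate 2 was the highest of its group for Smad7 with 1.71 CPM against 0.538 to 0.681 CPM. It was the lowest for Acot1 with 0.5696 CPM against 1.05 to 1.103 CPM. Control replicate 3 was the highest of its group for Cav3 with 102 CPM against 62.8 to 68.9 CPM, Ckmt2 with 1185 CPM against 915 to 947 CPM and Mat2a with 179 CPM against 77.03 to 94.4 CPM. It was further the highest for Mylpf with 20733 CPM against 15447 to 15920.2 CPM, Ppp1r3c with 1250.1 CPM against 145 to 242 CPM and Sypl2 with 1142 CPM against 728 to 779 CPM. The same library was the highest for Thbs4 with 112 CPM against 76.5 to 82.4 CPM and Vcl with 87.7 CPM against 52.4 to 56.7 CPM. It was the lowest for Ift74 with 0.255 CPM against 1.02 to 1.14 CPM and Tgfb3 with 45.3 CPM against 52.7 to 53.5 CPM. Control replicate 4 was the highest of its group for Nexn with 59.7 CPM against 25.9 to 29.3 CPM, Ppargc1a with 15.1 CPM against 8.52 to 9.11 CPM and Trdn with 159 CPM against 37.9 to 55.9 CPM. It was further the highest for Ubxn4 with 35.8 CPM against 26.4 to 27.03 CPM and Xirp2 with 588 CPM against 207 to 247 CPM. It was the lowest for Esrra with 106 CPM against 143 to 147 CPM.

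At gene level, edgeR called no gene for the difference between the WT and the labelled Notch2-mKO response to unloading, so none of the 190 genes is listed here for such a difference. The cause of these single-library values was not tested.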

How the results depend on the processing

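For WT unloading versus WT control, the 4522 calls (2395 higher and 2127 lower) stayed within 1.5 times in total under every alternative run. Only 716 lower calls were made when limma was fitted to the deposited log2 values. The total was 3380 with the GC and length trend removed, 4634 with upper quartile scaling, 4199 with no low-count filter, 4283 with the compared libraries alone, 3947 with limma, 4795 with DESeq2 and 3686 to 4741 with 1 library left out. The calls shared in the same direction were 2352 with the trend removed, 2827 with limma and 4511 with DESeq2. For unloading against diabetes, where the main count was 464 (162 higher and 302 lower), the compared libraries alone gave 257 (63 and 194), limma 300 (98 and 202), DESeq2 697 (250 and 447) and 1 library left out 278 to 472 (81 to 152 and 197 to 320). For the difference in response between WT and labelled Notch2-mKO muscle, where edgeR called 0 genes, limma called 1 (1 lower), DESeq2 119 (97 higher and 22 lower), and 1 library left out gave 0 to 429 (0 to 375 higher and 0 to 54 lower), the highest without control replicate 4 of the WT group. The cause was not tested for any of these.

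The replicate numbers did not pair the libraries: the correlations of deviations between unloaded and control libraries of the same number were 0.018, -0.007, -0.048 and -0.009, and 1 of 4 numbers correlated best with its own. With the replicate block, the calls were 4371 (2322 higher and 2049 lower) for WT unloading versus WT control, 422 for unloading against diabetes and 0 for the difference in response. With the replicate block and the trend removed they were 3252, 475 and 0.

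Of 169 called genes described, 169 kept their call under upper quartile scaling, DESeq2 and the replicate block, 168 with no filter and with the compared libraries alone, 158 with the trend removed, 156 with limma and 156 to 168 with 1 library left out. Of 90 list counts, 53 stayed within 1.5 times with the trend removed, 33 with limma and 86 with DESeq2. The called gene that turned was Mstn, at -0.0669 with the trend removed and -0.0305 with the replicate block as well, against 0.88. Genes that were not called also turned. Csrp3 was at -0.21 with the replicate block, -0.39 with limma and -1.64 to 0.58 with 1 library left out. Heyl was at 0.0473 with the trend removed, 0.0809 with the block as well, 0.14 with limma and -0.35 to 0.0783 with 1 library left out, and Mb at 0.18, 0.19 and 0.14 under the same first 3 settings. Notch2 was at 0.0574 with the trend removed, 0.0508 with the block as well and -0.14 to 0.0445 with 1 library left out, and Ppargc1a at -0.14 with the trend removed, with or without the block. Myh7 was at 0.02 with the trend removed and -0.70 to 0.0295 with 1 library left out, Myh1 at -0.20 to 0.18 with 1 library left out, and Scd1 at 0.16 with limma.

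The groups of 4 libraries limit the precision of each value, and intervals or floors on counts cover counting error only. The labels give no separate animal for each library, so p-values measure the spread between these libraries. Multi-mapping and antisense reads were not assessed.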
